A study of Homo sapiens with 4 samples.

Results

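The genes described here encode proteins that repair DNA or signal that it is damaged. They are 43 genes chosen by symbol, and 40 of them had at least 1 probe with that gene name on the array, out of 20044 genes with a named probe. BRCA2, FANCA and FANCD2 had no probe named for them and are not analysed here. The cultures carry the label HT-29, the name of an established epithelial line from a human colorectal adenocarcinoma, and their transcripts were read on 4 Illumina HumanHT-12 V4 arrays. The first group received 20 µM cyclopamine for 48 h, and cyclopamine is a plant steroidal alkaloid that binds the Hedgehog signal transducer Smoothened. Its control was on the same chip (chip 1), and the labels of that control disagree, since the title and treatment give DMSO and the source name gives tomatidine, so it is called the chip 1 control. The second treated group received 20 µM GANT61 for 48 h, an inhibitor of the GLI transcription factors that end the Hedgehog pathway, and stood beside a DMSO control on chip 2. Each group was 1 array, so no difference below has a replicate check and none has a p-value.

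Cells mend different lesions by different routes. Homologous recombination copies the sister chromatid to heal double-strand breaks and, with the Fanconi anaemia proteins, crosslinked or stalled replication forks, so many of its genes are transcribed mainly in dividing cells. End joining religates breaks at any time, mismatch repair corrects copying errors, nucleotide excision repair removes bulky and ultraviolet damage, and base excision repair removes oxidised or alkylated bases. The kinases ATM and ATR, with CHEK1 and CHEK2, relay damage to the cell cycle. Repair capacity matters in colorectal cancer because loss of mismatch repair or of MGMT marks subsets of these tumours.

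The chips differed in cell type markers, which touches every statement that compares them and every cyclopamine value as a reading of the labelled line. Of 20 epithelial and colonocyte markers, 4 were above background with cyclopamine and 4 in the chip 1 control, against 14 with GANT61 and 17 in the chip 2 control. Their summed normalised intensity was 2579 and 2431 on chip 1, against 37842 and 39000 on chip 2. EPCAM and CDH1, the defining surface proteins of epithelia, were below background on both chip 1 arrays. The chip 1 values thus go against the epithelial HT-29 label, and whether these cultures were the labelled line was not tested. The cyclopamine ratios below are those of the chip 1 cultures, whatever their identity. Of 15 mesenchymal markers, 7 were above background on each chip 1 array and 4 on each chip 2 array, with summed intensities of 7532 and 7063 against 607 and 719. The 6 leukocyte markers with a probe gave 1 above background on each chip 1 array, 4 with GANT61 and 3 in the chip 2 control, and none of 5 endothelial markers was above background anywhere. The number of probes with a detection p under 0.01, the criterion for being above background, was 13453 with cyclopamine, 13908 in the chip 1 control, 15958 with GANT61 and 17068 in the chip 2 control. In such cultures, fewer cells carrying a transcript and less of it per cell cannot be told apart.

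Few repair genes were far from their control, and as normalised here each one that was lay below it at its brightest probe. A log2 ratio of normalised intensity, compound over the control of its chip, was read where both arrays were above background, and 1.5-fold was taken as apart. With cyclopamine 34 repair genes could be read. Of these, 3 were at least 1.5-fold lower (8.82%) and 0 higher, against 4.35% lower and 7.31% higher among 8007 genes. The lower genes were NUDT1, CHEK1 and EXO1. The count of lower genes was 8 with median scaling, where 15.9% of all genes were lower, and 6 in the unnormalised series table, where 9.28% were. Normalisation within chips put 1 gene higher, XPC at 0.63, where 8.36% of all genes were higher. With GANT61 35 could be read, 3 were at least 1.5-fold lower (8.57%) and 0 higher, against 8.75% and 10.7% of 9370 genes. Those were NUDT1, XRCC2 and RAD51C. With median scaling the count was 5, where 16.3% of all genes were lower, and normalisation within chips or averaging of probes left NUDT1 alone. The share of lower genes with GANT61 was thus close to that of all genes. Past 2-fold, 0 repair genes were lower with cyclopamine, against 0.512% of all genes, and 1 with GANT61, NUDT1, against 1.90%.

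With GANT61, 30 of the 35 genes had a log2 ratio below 0 (85.7%), against 48.9% of all genes, and their median was -0.22 against 0.01. With cyclopamine, 22 of 34 lay below 0 and 12 above it, where 49.9% of all genes lay above, and the median was -0.07 against 0.00. Relative to the median of all genes, the GANT61 median of the repair genes stayed between -0.23 and -0.15 under the settings tried, and 82.5% to 88.6% of the genes lay below that median. The cyclopamine median stayed between -0.11 and -0.02. A rescaling of the arrays shifts all genes together: median scaling put the median of all genes at -0.25 with cyclopamine and -0.18 with GANT61, and the unnormalised series table put it at -0.20 and -0.10. The share of higher genes among all genes 1.5-fold apart was 62.7% with cyclopamine and 54.9% with GANT61, but 17.9% and 26.5% with median scaling and 17.3% and 36.5% in the series table. As a yardstick of spread between probes, different probes of one gene gave log2 ratios with an SD per probe of 0.23 with cyclopamine (1823 genes) and 0.27 with GANT61 (2343 genes). Of such probe pairs, 8.34% and 11.9% were 1.5-fold apart. The probes of a pair were read on the same arrays, so this SD leaves out variation between cultures or arrays that they share. Ratios of 20 of the 34 and 18 of the 35 repair genes were smaller than that SD.

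**Figure D1:**
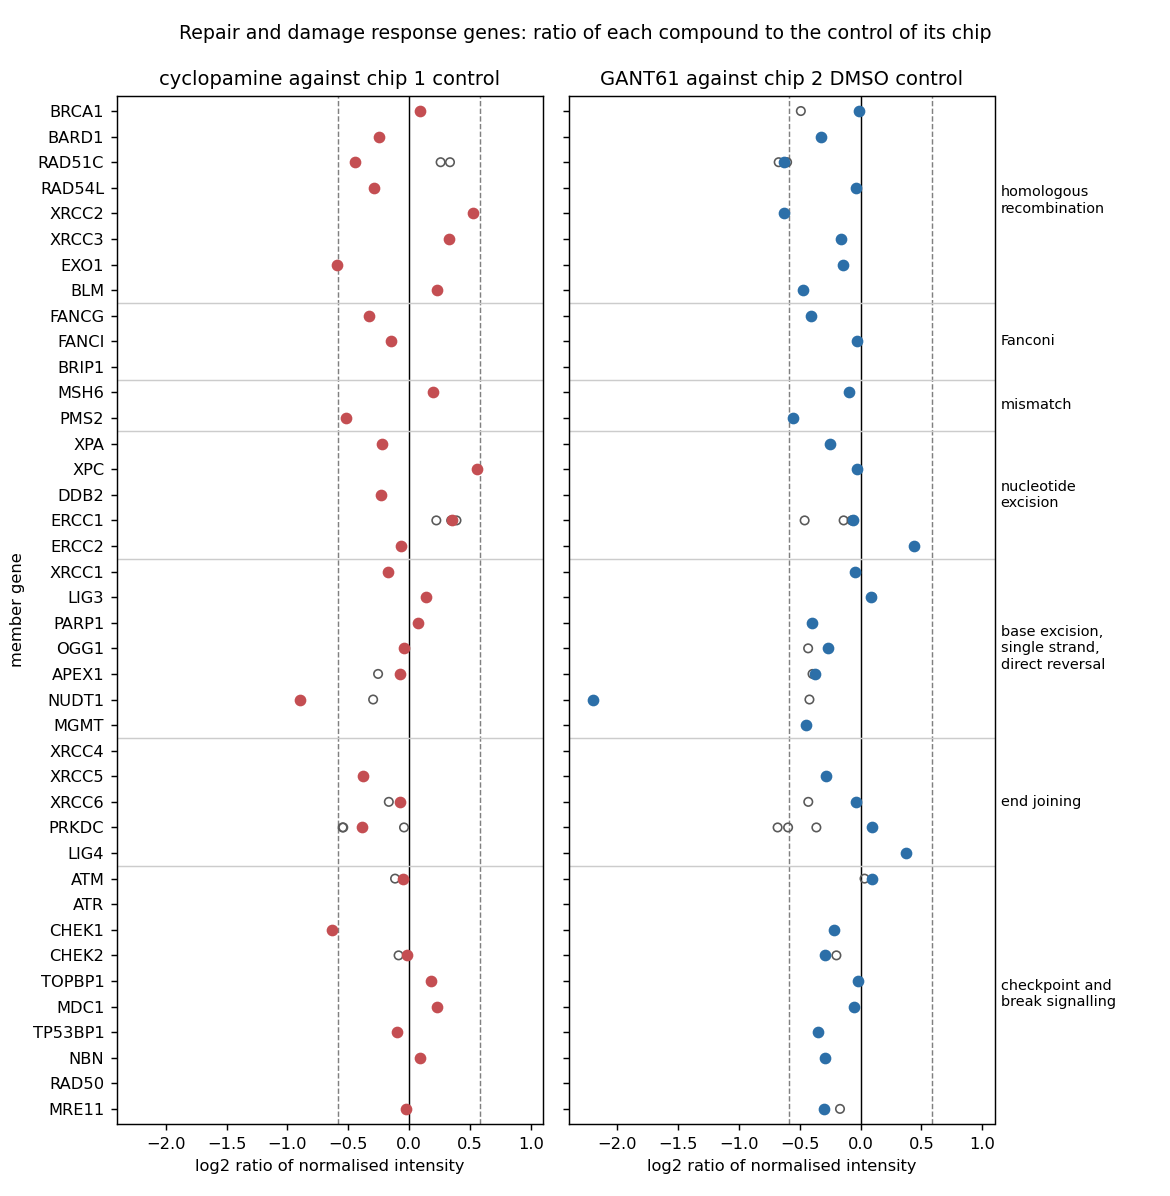
Log2 ratio of normalised intensity of each repair gene (rows, by repair route), cyclopamine over the chip 1 control on the left and GANT61 over the chip 2 DMSO control on the right. Filled points are the brightest probe of a gene, open points its other probes above background on both arrays, and dashed lines mark 1.5-fold. With GANT61, 30 of 35 filled points lie left of 0, and NUDT1 stands alone at -2.20.

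NUDT1 had the lowest ratio with either compound. It encodes the hydrolase MTH1, which clears oxidised purine nucleotides from the pool before they can be built into DNA. Its brightest probe (ILMN_2330243) read 6.14 with GANT61 against 8.34 in the chip 2 control on the normalised log2 scale, which is 4.59-fold lower, and deposited intensities of 126 against 431. With cyclopamine it read 7.93 against 8.83 in the chip 1 control, 1.86-fold lower. Of the 4 arrays, the GANT61 array was the lowest and the chip 1 control the highest. Among 9370 genes readable with GANT61, NUDT1 had the lowest ratio of all. It was also the lowest with each detection filter, within-chip normalisation and median scaling, rank 2 in the series table and when the offset was 50, rank 3 without background correction, and rank 43 when all probes of a gene were averaged. The average takes in its other probe, ILMN_1654068, which read 6.12 with GANT61 against 6.54 in the control, a log2 ratio of -0.42. With cyclopamine that probe read 7.58 against 7.88, a log2 ratio of -0.30. Both probes were therefore lower with both compounds, but the size differed between them by 1.78 on the log2 scale with GANT61, and which transcripts each probe binds was not tested.

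Homologous recombination genes, at their brightest probes, lay below their control without exception with GANT61 and split evenly with cyclopamine. Below 0 with GANT61 also lay 85.7% of all readable repair genes, against 48.9% of all genes. The brightest probes of BRCA1, RAD54L, EXO1 and XRCC3 had GANT61 ratios smaller than the probe SD of 0.27. All 8 with a probe were above background on the 4 arrays, and their median log2 ratio was -0.24 with GANT61 and -0.08 with cyclopamine. RAD51C acts in homologous recombination and in the repair of crosslinks. Its brightest probe read 7.86 with GANT61 against 8.49 in the chip 2 control, 1.55-fold lower. All 3 of its probes above background gave nearly the same GANT61 ratio, from -0.67 to -0.60. With cyclopamine the same probes ran from -0.45 (9.05 against 9.50) to 0.34 and thus gave no common direction.

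XRCC2, which forms a complex with RAD51C in recombination, pointed opposite ways with the compounds. It read 9.80 with GANT61 against 10.42 in the chip 2 control, 1.55-fold lower. With cyclopamine it read 9.58 against 9.05 in the chip 1 control, 1.44-fold higher. Its highest array was the chip 2 control and its lowest the chip 1 control, so the treated arrays lay between the controls. Its other probe was below background on all 4 arrays, so nothing checks this within the gene.

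EXO1, a nuclease that resects broken ends and also serves mismatch repair, read 7.53 with cyclopamine against 8.12 in the chip 1 control, a log2 ratio of -0.59 at the edge of 1.5-fold. With GANT61 it had -0.15. BLM, the helicase that dissolves crossed-over intermediates, had log2 ratios of 0.23 with cyclopamine (7.03 against 6.80) and -0.47 with GANT61 (6.28 against 6.75). The other 4 recombination genes stayed within 1.5-fold with both compounds. BRCA1, which promotes recombination, had 0.09 with cyclopamine and -0.02 with GANT61, and a second BRCA1 probe, readable on chip 2 alone, had -0.49. BARD1, its obligate partner, had -0.24 and -0.32, RAD54L, a DNA-dependent motor of recombination, -0.29 and -0.04, and XRCC3, a further partner of RAD51C, 0.32 and -0.16.

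**Figure D2:**
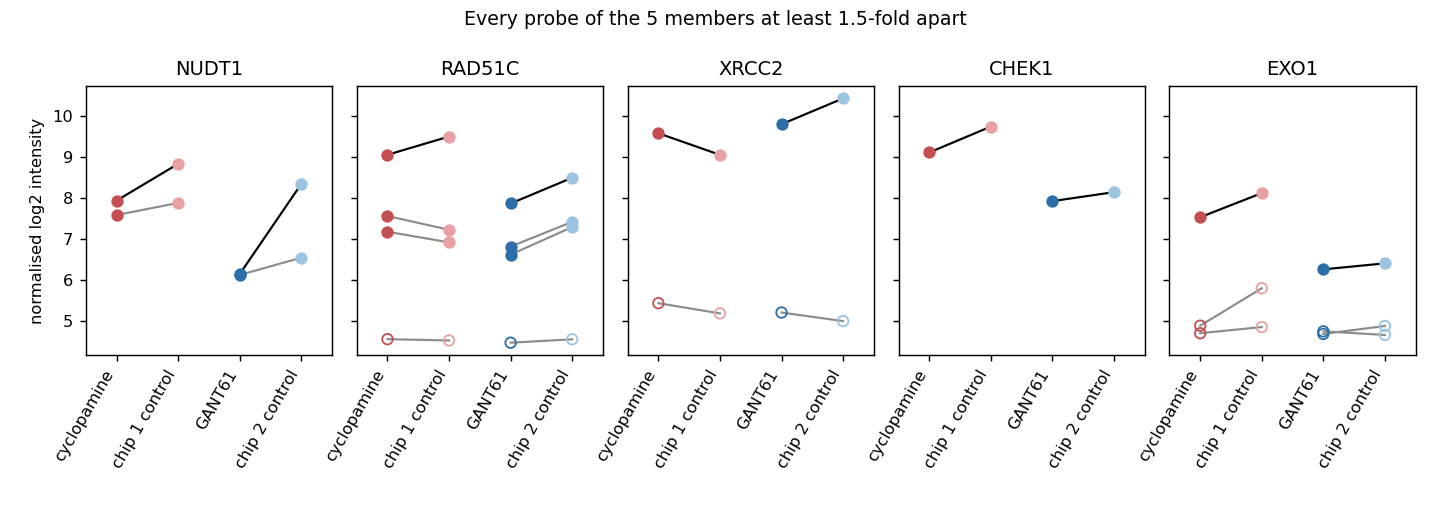
Normalised log2 intensity of every probe of the 5 repair genes at least 1.5-fold apart with a compound, on the 4 arrays. Lines join a treated array to the control of its chip, black for the brightest probe and grey for others, and open points were not above background. The 3 RAD51C probes run parallel on chip 2 and not on chip 1, and the NUDT1 probes differ in slope.

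Of the Fanconi group, FANCG and FANCI could be read and both lay below the control with both compounds. FANCG, a subunit of the core ligase complex, read 9.47 with cyclopamine against 9.80, and 8.29 with GANT61 against 8.70, log2 ratios of -0.33 and -0.41. FANCI, which this ligase ubiquitinates together with FANCD2, had -0.14 and -0.03, smaller than the probe SD. BRIP1, a helicase that binds BRCA1, was below background on all 4 arrays. The mismatch genes differed from each other. PMS2, which nicks the strand to be corrected, had -0.52 with cyclopamine (7.11 against 7.63) and -0.56 with GANT61 (6.74 against 7.30), just within 1.5-fold both times. MSH6, which recognises single mispairs, had 0.20 and -0.09.

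XPC had the ratio nearest to 1.5-fold on the higher side with cyclopamine. It encodes the nucleotide excision protein that detects helix distortion in the whole genome, and it read 8.68 with cyclopamine against 8.12 in the chip 1 control, 1.47-fold higher, and 7.87 with GANT61 against 7.91. ERCC1, the partner of the XPF nuclease, had all 4 probes higher with cyclopamine, with log2 ratios from 0.22 to 0.39. With GANT61 the same 4 probes ran from -0.46 to -0.06. ERCC2, the XPD helicase of the transcription factor TFIIH, had 0.44 with GANT61 (7.41 against 6.97), the highest ratio among the 35 readable of the 43 genes, and -0.07 with cyclopamine. XPA, which verifies the lesion, had -0.22 and -0.25. DDB2, the ultraviolet damage sensor and a known p53 target like XPC, had -0.23 with cyclopamine. It was below background with GANT61 and barely above it in the chip 2 control (5.39), so no fold can be given there.

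Genes of base excision, single-strand repair and direct reversal were taken as 1 group, which includes NUDT1, described above, and MGMT. With GANT61, 6 of the 7 lay below 0 (85.7%), the same share as among all 35 readable repair genes, against 48.9% of all genes. Their median log2 ratio was -0.38, against -0.22 for the 35. With cyclopamine the median of the 6 readable was -0.06. PARP1, which senses strand breaks and makes poly(ADP-ribose), had -0.40 with GANT61 (9.57 against 9.97) and 0.07 with cyclopamine. APEX1, the main abasic site nuclease, had -0.38 and -0.40 at its probes with GANT61, and -0.08 and -0.25 with cyclopamine. OGG1, the glycosylase for 8-oxoguanine, had -0.27 and -0.43 at its probes with GANT61, and -0.04 at the one readable with cyclopamine. XRCC1, the scaffold of single-strand break repair, had -0.18 with cyclopamine and -0.05 with GANT61, and its ligase partner LIG3 had 0.14 and 0.09, the one gene of the 33 above background on all 4 arrays that was higher with both.

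MGMT directly removes alkyl groups from guanine. It read 9.02 with GANT61 against 9.47 in the chip 2 control, a log2 ratio of -0.45. On both chip 1 arrays it was below background, so nothing can be said of it with cyclopamine.

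By their brightest probes, end joining genes showed no common direction with GANT61. XRCC5 and XRCC6, the subunits of the Ku ring that caps broken ends, had -0.28 and -0.04 with GANT61, and -0.38 and -0.08 with cyclopamine. A second XRCC6 probe, above background on all arrays, had -0.43 with GANT61 and -0.17 with cyclopamine. PRKDC, the kinase recruited by Ku, had 4 probes that disagreed with GANT61, from -0.68 to 0.09, with the brightest at 0.09. All 4 were lower with cyclopamine, from -0.55 to -0.04. LIG4, which seals the ends, was readable on chip 2 alone and had 0.37 with GANT61 (6.02 against 5.65). These levels were near the lowest detected, 5.49 with GANT61 and 5.38 in the chip 2 control. XRCC4, its partner, was below background on all arrays.

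Among checkpoint genes, CHEK1 stood apart with cyclopamine. CHEK1, the effector kinase below ATR, read 9.11 with cyclopamine against 9.74 in the chip 1 control, 1.55-fold lower, and 7.92 with GANT61 against 8.14, a log2 ratio of -0.22. It has 1 probe. CHEK2, the effector below ATM, had -0.02 with cyclopamine and -0.29 with GANT61, and ATM itself -0.05 and 0.09. ATR was below background on all 4 arrays.

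At their brightest probes, the other readable checkpoint and break signalling genes stayed within 1.5-fold with both compounds. With GANT61, TP53BP1, whose protein favours end joining, had -0.35 (9.32 against 9.66), MRE11, the nuclease of the complex that first binds ends, -0.30, and its partner NBN -0.30. MDC1, the adaptor on phosphorylated chromatin, had -0.05, and TOPBP1, the activator of ATR, -0.02. With cyclopamine these 5 genes ran from -0.10 for TP53BP1 to 0.23 for MDC1. MRE11 has 2 further, dimmer probes, and both were below background with cyclopamine (5.34 and 5.92) and above it in the chip 1 control (6.75 and 6.22), whereas the brightest probe had a ratio of -0.02. The lowest detected level with cyclopamine was 5.94. By that bound the probe that read 6.75 in the chip 1 control was past 1.5-fold lower. RAD50, the other partner of MRE11 and NBN, was below background on every array.

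Of the 33 genes above background on all 4 arrays, 18 were lower with both compounds, 11 were higher with cyclopamine and lower with GANT61, 3 were the reverse and 1 was higher with both. This split was not counted over all genes. Taken singly, 64.7% of the readable repair genes lay below 0 with cyclopamine and 85.7% with GANT61. No agreement between the compounds is therefore read from the 18. The compounds were each set against a control of their own, on chips that differed in cell type markers, so the difference between them is a description. It was widest for the brightest probe of NUDT1, with -0.90 for cyclopamine and -2.20 for GANT61, although its other probe had -0.30 and -0.42. XRCC2 came next, with 0.53 and -0.63. BLM, XPC and XRCC3 followed in the direction higher with cyclopamine, with differences of 0.70, 0.59 and 0.49. In the other direction ERCC2, which has 1 probe, led with a difference of -0.51. The brightest probe of PRKDC gave -0.48, but its other 3 probes ran from -0.55 to -0.04 with cyclopamine and from -0.68 to -0.36 with GANT61.

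**Figure D3:**
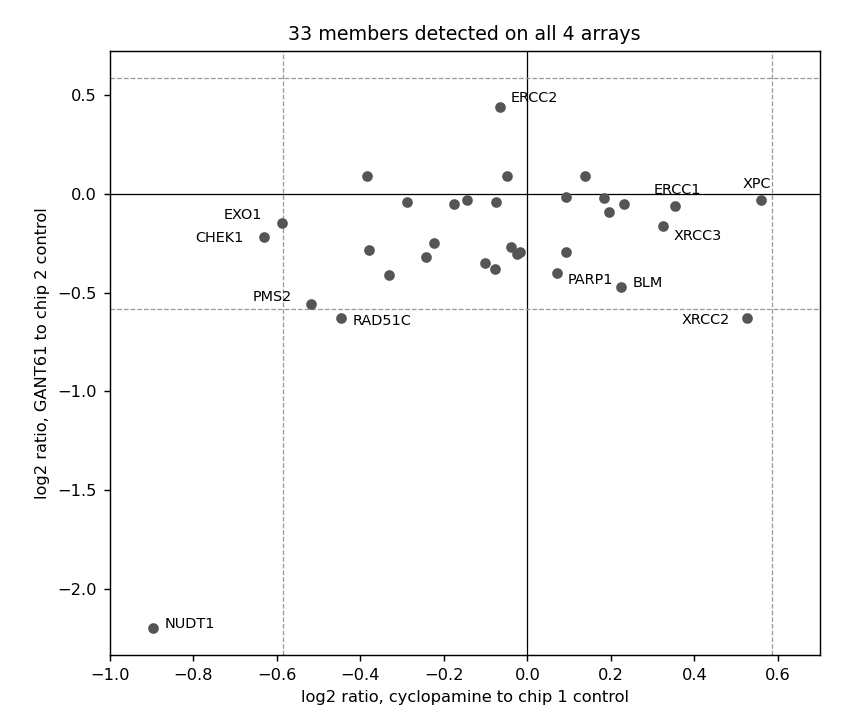
Log2 ratio with cyclopamine over the chip 1 control (horizontal) against that with GANT61 over the chip 2 control (vertical), 1 point for each of the 33 repair genes above background on all 4 arrays, with dashed lines at 1.5-fold. Most points lie below the horizontal zero line on either side of the vertical one, and NUDT1 lies alone at the lower left.

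More repair genes were 1.5-fold apart between the chips than between a compound and its control. Set against the DMSO control of chip 2, the chip 1 control had 16 of 34 readable repair genes at least 1.5-fold higher (47.1%) and 5 lower (14.7%), against 31.3% and 26.6% of 7827 genes. With median scaling 11 were higher and 8 lower, against 20.0% and 39.9%. Between probes of one gene the SD was 0.58 in this comparison. The separation ran through the treated arrays too. Both chip 1 arrays lay above both chip 2 arrays for 22 of 33 genes, against 40.4% of all genes above background on the 4 arrays, and below them for 7, against 35.6%.

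The higher side on chip 1 held 5 of the 8 recombination genes with a probe (62.5%), against 31.3% of all genes. RAD51C counts among the 5 by its brightest probe (1.00), whereas its other probes above background had -0.19 and -0.37. Checkpoint genes stood on both sides, with 3 of 8 readable higher and 3 lower (37.5% each), against 31.3% and 26.6% of all genes. EXO1 was 3.28-fold higher in the chip 1 control, with a log2 ratio of 1.71 between the controls, CHEK1 3.03-fold (9.74 against 8.14), MDC1 2.62-fold (9.90 against 8.51) and PARP1 2.52-fold (11.31 against 9.97). Both readable Fanconi genes were among them, with FANCG 2.15-fold and FANCI 2.07-fold higher. DNA replication genes also stood higher on chip 1: 21 of 25 were past 1.5-fold, and their median log2 ratio was 1.12. Their part in the difference of the repair genes was not tested.

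MGMT and TP53BP1 led the other side. The chip 1 control held MGMT at 4.53, below background, against 9.47 in the chip 2 control, so it was at least 12.4-fold lower, and the cyclopamine array was alike at 4.56. TP53BP1 was 5.81-fold lower (7.13 against 9.66), XRCC2 2.60-fold (9.05 against 10.42) and XRCC5 2.22-fold (8.57 against 9.72). NBN and ATM had log2 ratios of -1.25 and -0.72. Chip and culture cannot be told apart in these values.

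**Figure D4:**
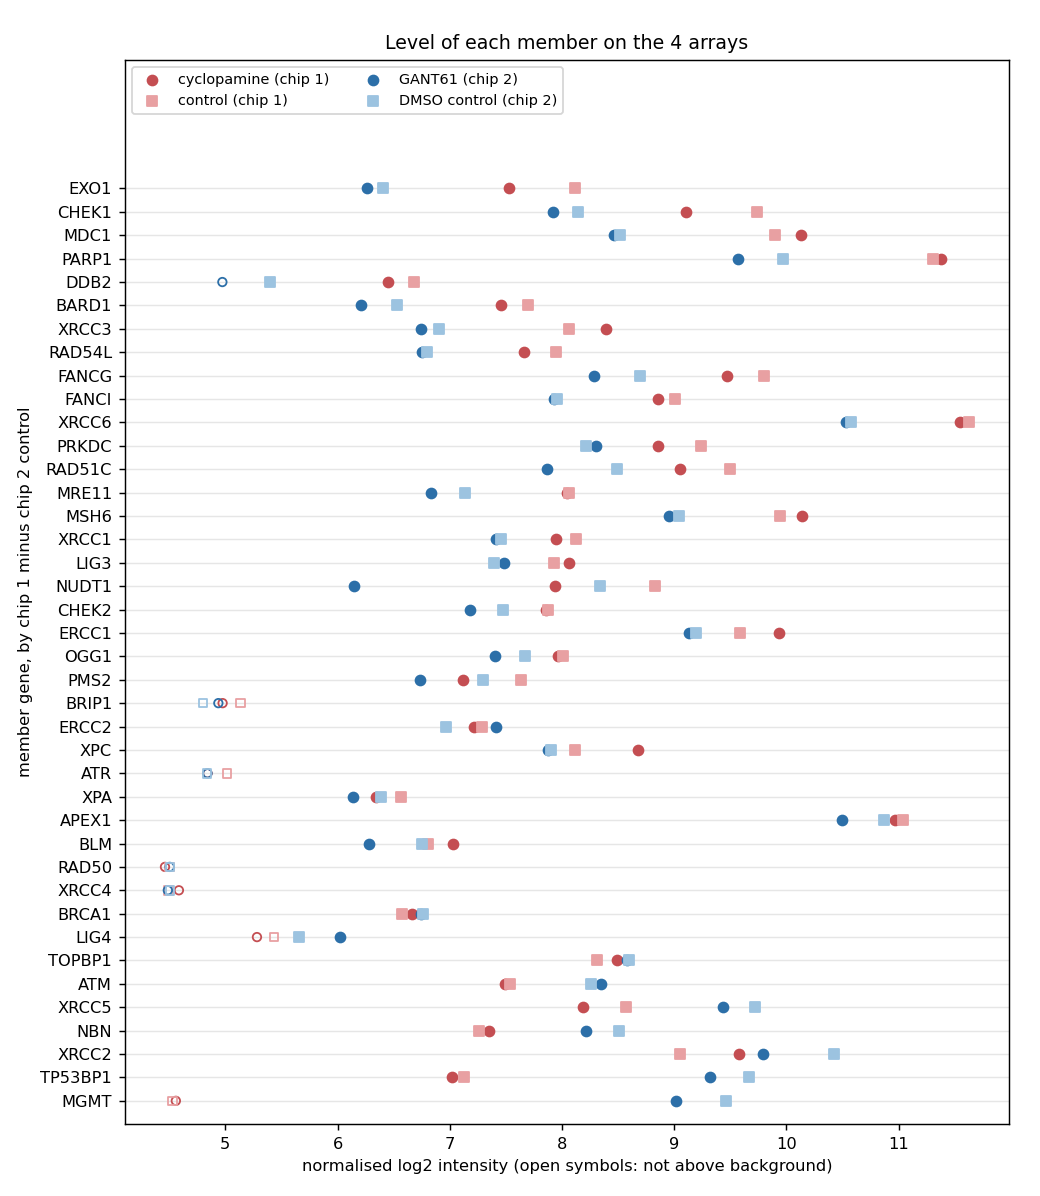
Normalised log2 intensity of the brightest probe of each repair gene on the 4 arrays, ordered by the difference between the controls. Circles are treated arrays, squares controls, red chip 1 and blue chip 2, and open symbols were not above background. Red and blue do not overlap for 22 genes higher and 7 lower on chip 1, of the 33 above background on all arrays. Among all genes above background on the 4 arrays the shares were 40.4% and 35.6%. MGMT, which is outside the 33 because it was below background on chip 1, shows the widest gap. Levels of different probes are not comparable across rows.

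A further list of 95 repair genes, none of them among the 43, had 87 with a probe. With GANT61, 64 were readable, of which 6 lay at least 1.5-fold below the control (9.38%) and 1 above it (1.56%). Among all genes the shares were 8.75% and 10.7%, so the lower share was near that of all genes. Of the 64, 40 had a ratio below 0 (62.5%), against 48.9% of all genes and 85.7% of the readable ones of the 43. The median log2 ratio of the 64 was -0.13. The lower genes were RPA3, a subunit of the protein that coats single-stranded DNA (10.02 against 11.06), H2AX, the histone phosphorylated around breaks (-0.98), LIG1, the replicative ligase (-0.96), UBE2T, the Fanconi conjugating enzyme (-0.79), SMC6 (-0.61) and RAD51AP1, a recombination factor (-0.59). POLM, an end-joining polymerase, was higher at 1.06. With cyclopamine the list was centred at 0.00, and past 1.5-fold lay 5 of 60 on the higher side and 0 on the lower. These were ABRAXAS1, of the BRCA1-A complex (9.59 against 8.69), DCLRE1C, the Artemis nuclease (0.87), TOP3A, a topoisomerase that works with BLM (0.74), FAN1, a crosslink nuclease (0.71), and MBD4, a mismatch glycosylase (0.69). The 5 higher genes are 8.33% of the list, near the 7.31% of all genes, and 30 genes of the list lay on either side of 0.

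Genes of mitosis and DNA replication had medians below 0 with both compounds. Of 25 mitosis genes readable with GANT61, 15 were at least 1.5-fold lower and the median log2 ratio was -0.77, with CCNB1 at -1.11, MKI67 at -1.05, KIF20A at -1.02 and CENPF at -1.01. With cyclopamine 7 of 24 were lower (29.2%), against 4.35% of all genes, and the median was -0.39, with PBK at -1.03 and CCNA2 at -0.92. DNA replication genes had medians of -0.26 with GANT61 (4 of 24 lower, 16.7%, RRM2 at -1.06) and -0.13 with cyclopamine (1 of 25, 4.0%, RRM2 at -0.59). That cyclopamine share was near the share of all genes. The median of the repair genes was thus closer to that of replication than of mitosis genes. Known p53 targets outside the repair genes had medians of 0.28 with GANT61 (13 readable) and 0.22 with cyclopamine (9 readable), led by CDKN1A, a cell cycle inhibitor, at 2.97 and 0.74, although SESN1, a stress-induced protein, had -1.73 with GANT61. With cyclopamine SESN1 and RRM2B, a ribonucleotide reductase subunit, were below background and are not in that median, at least 1.52-fold and 1.37-fold lower than in the chip 1 control. The part of these genes in the repair gene values was not tested.

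**Figure D5:**
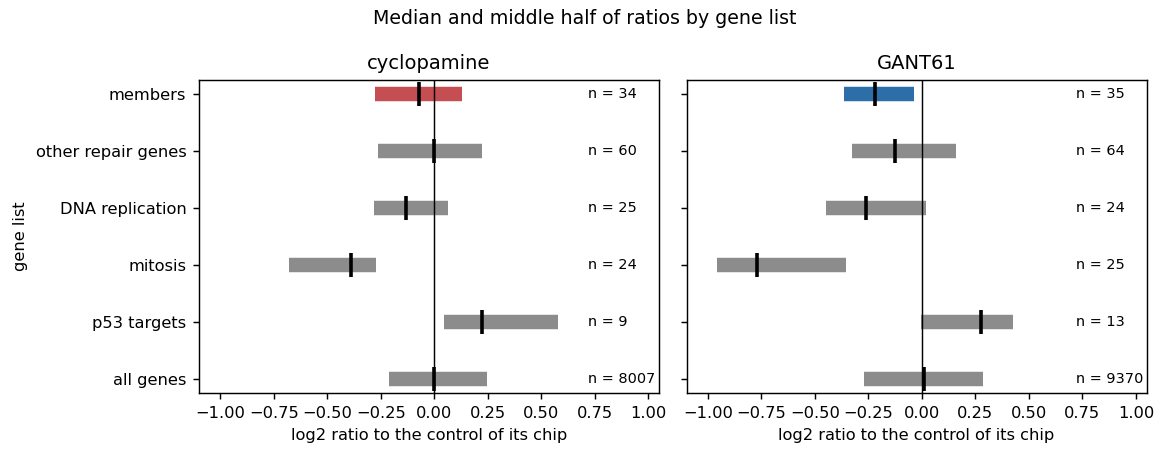
Median (black tick) and interquartile range (bar) of log2 ratios, compound over the control of its chip, for the repair genes described here (members, coloured), other repair genes, DNA replication, mitosis and p53 target genes and all genes. The number of genes above background on both arrays is given as n. Repair genes lie left of all genes with GANT61, and mitosis genes further left.

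The promoters of the 5 genes 1.5-fold apart are shown to set the words known from cell cycle promoters beside the genes that stood furthest from their control. Windows of 300 bases, from 250 before to 50 after a start, were read from RefSeq (build GRCh38.p14, the first window listed for each gene, on the gene's own strand). RefSeq lists 3 windows for CHEK1 and 2 each for NUDT1, RAD51C and EXO1, so others may hold other words. Capitals mark matches on either strand to words of E2F (TTTCCCGC, TTTGGCGC, TTTCGCGC, TTTGCCGC), of NF-Y (CCAAT) and of the mitotic CHR element (TTTGAA and, as its variant form, TTTAAA), which may overlap.
NUDT1 (chr7:2249061-2249360, plus strand): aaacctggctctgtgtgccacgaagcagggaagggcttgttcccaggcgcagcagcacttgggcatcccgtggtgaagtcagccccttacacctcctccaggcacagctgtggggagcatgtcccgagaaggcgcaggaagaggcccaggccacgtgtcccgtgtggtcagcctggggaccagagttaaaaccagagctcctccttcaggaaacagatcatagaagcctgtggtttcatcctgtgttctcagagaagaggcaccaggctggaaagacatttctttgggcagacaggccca
RAD51C (chr17:58692323-58692622, plus strand): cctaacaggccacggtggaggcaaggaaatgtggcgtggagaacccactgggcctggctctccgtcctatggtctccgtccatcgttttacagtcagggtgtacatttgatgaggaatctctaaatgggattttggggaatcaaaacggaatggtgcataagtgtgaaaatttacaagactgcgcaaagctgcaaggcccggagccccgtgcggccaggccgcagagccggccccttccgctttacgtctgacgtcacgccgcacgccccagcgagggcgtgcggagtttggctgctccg
XRCC2 (chr7:152676092-152676391, minus strand): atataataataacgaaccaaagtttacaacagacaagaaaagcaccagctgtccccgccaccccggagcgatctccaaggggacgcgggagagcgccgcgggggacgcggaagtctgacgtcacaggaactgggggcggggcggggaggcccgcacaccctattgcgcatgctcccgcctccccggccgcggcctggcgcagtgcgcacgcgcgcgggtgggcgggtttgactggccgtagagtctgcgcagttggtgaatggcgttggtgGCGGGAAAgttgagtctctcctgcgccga
CHEK1 (chr11:125625979-125626278, plus strand): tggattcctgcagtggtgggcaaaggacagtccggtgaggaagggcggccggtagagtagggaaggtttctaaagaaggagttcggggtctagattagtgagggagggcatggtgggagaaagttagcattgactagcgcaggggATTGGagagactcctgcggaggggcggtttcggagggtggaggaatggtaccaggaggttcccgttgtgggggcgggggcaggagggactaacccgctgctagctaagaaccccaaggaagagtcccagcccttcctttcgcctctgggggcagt
EXO1 (chr1:241847954-241848253, plus strand): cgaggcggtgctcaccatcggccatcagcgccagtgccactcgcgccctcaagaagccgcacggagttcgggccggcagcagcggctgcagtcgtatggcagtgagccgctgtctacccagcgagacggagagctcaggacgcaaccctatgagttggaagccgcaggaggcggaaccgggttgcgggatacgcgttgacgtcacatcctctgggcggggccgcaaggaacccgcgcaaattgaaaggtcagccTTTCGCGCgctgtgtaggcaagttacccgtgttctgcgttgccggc

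XRCC2 and EXO1 each held 1 E2F word, CHEK1 held 1 NF-Y word, and the NUDT1 and RAD51C windows held none of the words. An E2F word was found in 9 of the 39 repair genes with a window (23.1%), namely XRCC2, EXO1, FANCA, FANCD2, MSH6, PMS2, XPC, XRCC6 and TOPBP1, against 3.33% of 27305 genes. Those 27305 are all genes with a window and were not limited to genes above background on these arrays. In the further list of repair genes it was in 7 of 78 windows (8.97%), and in replication genes in 16 of 25. Among the repair routes, the base excision, single-strand and direct reversal group had it in 0 of 7. An NF-Y word was found in 51.3% of the repair genes and 35.7% of all genes, and a CHR word in 17.9% and 24.3%, against 16 of 19 mitosis genes. A match is a run of letters and no proof of binding. Of the 9 genes with an E2F word, those readable lay on both sides of their control with cyclopamine, from -0.59 for EXO1 to 0.56 for XPC. The 7 of them with a named probe all lay below it with GANT61, as did 30 of all 35 repair genes, from -0.63 for XRCC2 to -0.02 for TOPBP1.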

How the data were processed

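The deposited tables hold, per probe and array, a bead intensity and a detection p-value, and the deposited series table holds log2 intensity, equal to the log2 of the deposited intensity within 5e-09. Software behind them is not given in the sources used here. Of 47227 probes on both chips, 30111 had 1 gene symbol, updated through Entrez identifiers. Background correction and quantile normalisation over the 4 arrays used neqc (limma 3.58.1, R 4.3.3; offset 16, which compresses ratios of dim probes). The negative control level was inferred by limma from the detection p-values, since no control probes were used. Each gene was represented by its brightest probe on average. Ratios were read where detection p was under 0.01 on both arrays, and an array below background was replaced by its lowest detected level to give a bound. Genes at least 1.5-fold apart are named, with up to 6 other repair genes per direction and up to 4 genes of each cell cycle or p53 list. The genes, lists and named-gene rule were chosen with earlier results of these data known. The pipeline was tested on simulated data. With 1 array per group, array number limits precision and no test was made.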

Additional observations from a re-analysis of the deposited data

How the results depend on the processing

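Of 87 counts and medians recomputed under 10 alternatives, 77 stayed within 1.5 times (counts) or within the SD between probes of a gene (medians), and no median changed sign. That SD is wide for a median: between the controls the median log2 ratio was 0.51, but 0.12 with median scaling, 0.17 within chips and 0.27 in the series table, and with cyclopamine it was -0.07, but -0.22 in the series table. The 10 that moved further follow. With median scaling, 8 repair genes were at least 1.5-fold lower with cyclopamine (median log2 ratio -0.32), 5 with GANT61 and 8 in the chip 1 control against the chip 2 control. The series table gave 6 lower with cyclopamine. These scalings also lowered the median of all genes. Normalisation within each chip gave 1 gene higher with cyclopamine, XPC at 0.63, and 1 lower with GANT61, NUDT1. Averaging all probes also left NUDT1 as the 1 lower gene with GANT61, at -1.31, and XRCC2 at -0.21, because its other probe is below background. At 2-fold, 0 were lower with cyclopamine and 1 with GANT61, NUDT1 again. NUDT1 and CHEK1 were at least 1.5-fold lower with cyclopamine under each alternative that kept that fold, whereas EXO1 came under 1.5-fold with averaged probes, when the offset was 50, and when background was left uncorrected. RAD51C with GANT61 did so under these and under normalisation within chips. Over all genes, the share of higher genes among those 1.5-fold apart between the controls was 54.0%, against 33.4% with median scaling and 36.2% within chips. No paired analysis was possible because each group has 1 array. Dim genes, such as DDB2 on chip 2 and LIG4, are limited by signal over background.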
